A study of Mus musculus with 3 samples.

Results

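In the mouse spleen, 102 genes were highest in monocytes that express Spic, at least 2-fold above both monocytes without Spic and red pulp macrophages. Spic is a transcription factor of red pulp macrophages, the resident phagocytes that clear old red cells and recover iron from them. The genes were chosen by their values on the 3 arrays of the study, among the 18193 genes with a probe set. A gene was kept when its Spic-positive value was above log2 5.02, the median of all probe sets, and at least log2 1.0 above each other array. Symbols with the prefixes of several large families (immunoglobulin, chemokine and chemokine receptor, MHC, Gbp, Ly6, Cd, Clec and Rab) and a few single genes such as Itgax and Ciita were left out by name. This removed 22 of the 124 genes that passed (0.999% of 12414), among them Cxcl9, Ccr7 and Cd40 and also unrelated genes that share a prefix, such as Igf2r and Cdh16. Both genes given as markers of the group, Mmp14 and Il22ra2, were members. Because the 3 values chose the genes, their height in Spic-positive monocytes is a description and no test was made of it.

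The arrays measured 1 sample each of Spic-positive monocytes, Spic-negative monocytes and red pulp macrophages. All 3 came from adult mice with the genotype Spic(igfp/+), in which green fluorescent protein (GFP) reports Spic, so the reporter allele was shared by all groups. Monocytes were sorted for CD11b and Ly6C after depletion with CD4, CD8 and B220 beads and were then divided by GFP, and macrophages were sorted as high for F4/80 and GFP. The number of animals behind each array and their exact ages are not given in the sources used here. With no replicate there is no spread between animals, and differences are given by size only. Spic itself measured 9.22 in Spic-positive monocytes, 5.66 in Spic-negative monocytes and 12.23 in red pulp macrophages, so the population examined lay between the others for the gene it was sorted on. The CD11b gene Itgam measured 7.38, 8.68 and 5.23 in the same order of populations, and the monocyte receptor gene Ccr2 12.03, 12.51 and 7.0.

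Monocytes that enter tissues can become macrophages or antigen-presenting cells. Matrix metalloproteases let such cells move through tissue, secreted receptors and antagonists such as interleukin 22 binding protein and the interleukin 1 receptor antagonist limit cytokine signals, and TNF receptor adaptors and Ras exchange factors relay activating signals.

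The 102 genes were 0.848% of 12035 genes compared under the same name filter, while 122 genes (1.01%) peaked in Spic-negative monocytes and 1945 (16.2%) in red pulp macrophages by the same rule. The mirrored rule, with both other arrays above the floor, found 151 genes (1.25%) that were lowest in Spic-positive monocytes. In most of the group the peak was low and narrow. The Spic-positive level had a median of log2 6.22 (quartiles 5.63 and 7.83), with medians of 4.83 in Spic-negative monocytes and 4.65 in red pulp macrophages. The median difference was 1.30 from Spic-negative monocytes and 1.5 from macrophages, where the medians of all 12414 genes above the floor were -0.06 and -0.10. Of all 12414 genes, 26.1% were highest in Spic-positive monocytes by any margin. Against Spic-negative monocytes, 3.50% of all genes were higher by 2-fold or more and 3.05% lower, and against macrophages 11.6% were higher and 21.9% lower.

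**Figure D1:**
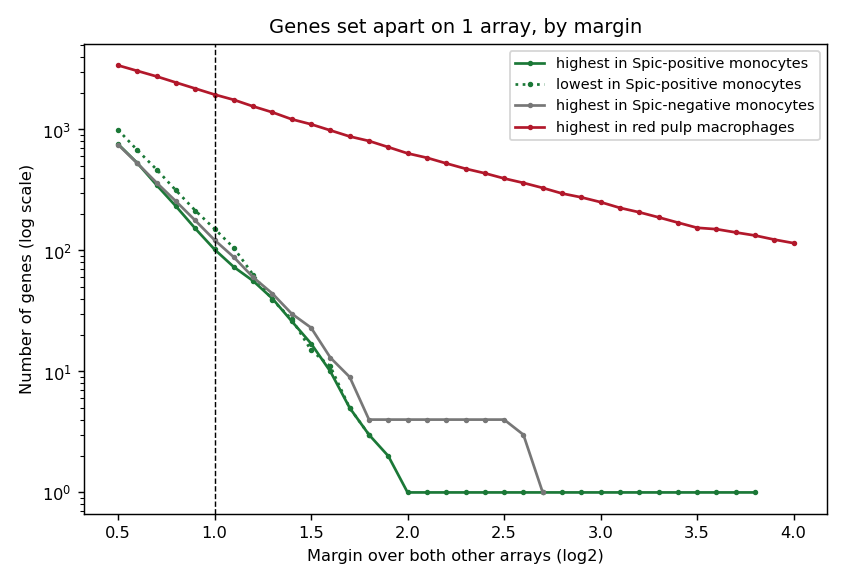
Number of genes (log scale) against the margin in log2 by which 1 array differed from both others, for genes highest or lowest in Spic-positive monocytes and for genes highest in each other population; the dashed line marks the 2-fold margin of the group. At that margin 102 genes peaked in Spic-positive monocytes, 122 in Spic-negative monocytes and 1945 in red pulp macrophages.

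Of the 102 genes, 54 lay below the floor on both other arrays, 15 on 1 of them and 33 on neither. The differences of the first 54 were measured against values near background. The share of genes that passed was greatest at low level: 44 of 2466 genes (1.78%) with a Spic-positive value between 5.02 and 6, 35 of 4022 (0.87%) between 6 and 8, 15 of 3211 (0.467%) between 8 and 10, and 8 of 1444 (0.554%) above 10. Low values as a whole were slightly higher on the Spic-positive array, whose 25th percentile was 3.78, against 3.66 for Spic-negative monocytes and 3.55 for macrophages. What this adds to the count of low genes was not tested.

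Spiked control transcripts were also highest on the Spic-positive array. Of 64 control probe sets, 29 met the rule for a peak in Spic-positive monocytes, namely 15 of 18 hybridization controls, 14 of 24 poly(A) controls and none of the 22 others. The medians were 2.16 above Spic-negative monocytes and 2.10 above macrophages for hybridization controls, and 1.20 and 1.27 for poly(A) controls. As a sign of RNA length, the Gapdh control at the 3' end exceeded that at the 5' end by 2.25 in Spic-positive monocytes, by 0.48 in Spic-negative monocytes and by 1.61 in macrophages. For beta-actin these values were 0.57, 0.74 and 1.13. The part of either measure in the 102 values was not tested. Outside the named genes, 70 of 4049 probe sets with no symbol or several (1.73%) also met the rule.

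Mmp14 stood apart from the rest. It encodes a membrane-anchored matrix metalloprotease that cleaves collagen and activates the secreted protease Mmp2, and it measured 9.46 in Spic-positive monocytes, 5.63 in Spic-negative monocytes and 4.98 in macrophages. This is 14.2-fold above Spic-negative monocytes and, against a macrophage value below the floor, 22.4-fold. It was the 1 member whose smaller difference exceeded 4-fold, and 12 members exceeded 3-fold. Its other probe sets were also highest in Spic-positive monocytes, with 6.40, 5.20 and 4.83 on one and 5.37, 4.66 and 4.74 on the other, so the direction was shared and the size was not.

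**Figure D2:**
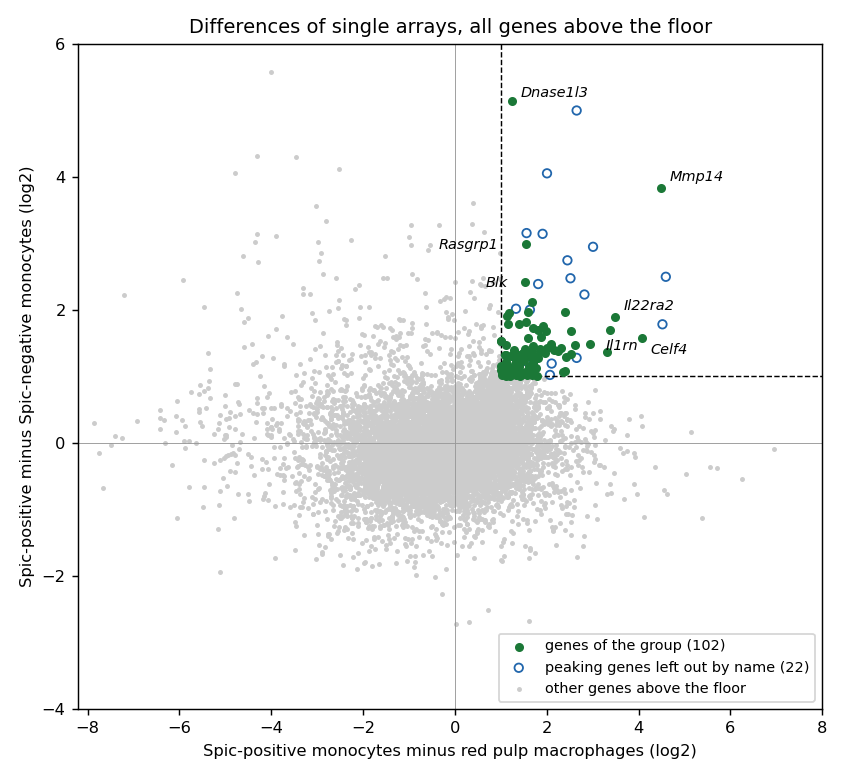
Each point is a gene above the floor, plotted by its Spic-positive minus red pulp macrophage difference (horizontal, log2) and its Spic-positive minus Spic-negative difference (vertical, log2) between single arrays; dashed lines mark the 2-fold limits. Most of the 102 genes sit close to the corner, and Mmp14 (4.48 and 3.83) and Dnase1l3 (1.24 and 5.14) stand apart from it.

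The promoters of 75 of the 102 genes were matched by gene identifier in a RefSeq table of the GRCm38.p6 build. The 250 bases before each start site were searched on both strands for 6 motifs. The PU box GAGGAAGT, bound by PU.1 and its close relative Spi-C, was present in 2 of 75 genes (2.67%) and in 2.79% of all 27025 genes in the table. A composite PU.1-IRF element was in 2 (2.67%, against 2.68%), an interferon response element in 4 (5.33%, against 3.46%), the AP-1 site TGANTCA in 6 (8.0%, against 7.82%) and the TATA box TATAAA in 7 (9.33%, against 14.3%). An NF-kB site was in none of the 75 and in 0.414% of all genes. The PU.1-IRF and interferon elements differ only in their second letter, so no stretch matches both at the same place. A match describes letters and not a bound site.

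Some of the matched promoters are shown because they belong to immune members described below and hold a motif of myeloid or interferon-responsive promoters, printed in capitals. In Mmp14 (chr14:54431348-54431597, plus strand) the PU.1-IRF element lies 208 to 199 bases before the start. A PU box lies 95 to 88 bases before the start of Prtn3 (chr10:79879417-79879666, plus strand) and 113 to 106 bases before that of Aim2 (chr1:173420354-173420603, plus strand). In Slamf8 (chr1:172590569-172590818, minus strand) the interferon response element is on the opposite strand, 15 to 6 bases before the start, and in Il1rn (chr2:24336610-24336859, plus strand) the AP-1 site lies 141 to 135 bases before the start.
Mmp14: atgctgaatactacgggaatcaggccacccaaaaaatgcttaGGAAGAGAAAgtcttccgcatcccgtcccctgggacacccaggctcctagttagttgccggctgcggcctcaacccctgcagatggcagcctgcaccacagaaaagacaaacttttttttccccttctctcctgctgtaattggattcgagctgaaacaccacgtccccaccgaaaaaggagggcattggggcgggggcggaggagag
Prtn3: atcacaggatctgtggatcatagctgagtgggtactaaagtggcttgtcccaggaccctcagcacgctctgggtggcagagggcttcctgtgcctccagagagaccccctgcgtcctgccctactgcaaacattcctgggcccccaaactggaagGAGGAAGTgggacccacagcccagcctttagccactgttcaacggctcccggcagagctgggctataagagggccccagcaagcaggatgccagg
Aim2: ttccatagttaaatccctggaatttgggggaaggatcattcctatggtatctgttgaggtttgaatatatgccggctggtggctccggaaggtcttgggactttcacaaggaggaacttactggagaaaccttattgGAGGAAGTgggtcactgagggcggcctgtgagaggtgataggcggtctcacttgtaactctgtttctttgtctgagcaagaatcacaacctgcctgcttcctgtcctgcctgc
Slamf8: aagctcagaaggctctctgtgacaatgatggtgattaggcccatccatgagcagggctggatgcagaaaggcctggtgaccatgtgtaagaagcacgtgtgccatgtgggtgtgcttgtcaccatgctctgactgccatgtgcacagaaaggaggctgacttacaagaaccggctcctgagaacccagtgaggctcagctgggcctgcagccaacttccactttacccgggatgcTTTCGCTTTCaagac
Il1rn: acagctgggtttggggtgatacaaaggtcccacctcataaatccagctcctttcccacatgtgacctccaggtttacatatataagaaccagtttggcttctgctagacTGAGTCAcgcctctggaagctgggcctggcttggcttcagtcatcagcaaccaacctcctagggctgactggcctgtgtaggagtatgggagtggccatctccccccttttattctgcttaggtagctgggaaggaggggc

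Among secreted and extracellular proteins (17 genes), Il22ra2 and Il1rn encode proteins that act against cytokines. Il22ra2 encodes a secreted receptor that binds interleukin 22 and keeps it from its target cells. It measured 6.99 in Spic-positive monocytes, 5.09 in Spic-negative monocytes and 3.51 in macrophages on its single probe set. The Spic-negative value was just above the floor, so the 1.89 difference between the monocytes was measured close to background. Il1rn, the interleukin 1 receptor antagonist, measured 9.87, 8.17 and 6.5, above the floor in all 3 populations. On both further probe sets above the floor it was again highest in Spic-positive monocytes, by 1.15 and 0.91 over the nearer array.

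Dnase1l3, a secreted nuclease that digests DNA from dying cells, had the largest difference from Spic-negative monocytes among the 102 genes, against a value below the floor, and a smaller one from macrophages. It measured 9.58 in Spic-positive monocytes, 4.43 in Spic-negative monocytes and 8.33 in macrophages. A further probe set read 8.23, 3.85 and 5.72, the widest margin among the further probe sets of the group (2.51). In both readings the gene was below the floor in Spic-negative monocytes and above it in the other populations. Sema7a, a membrane-anchored semaphorin that signals through integrins, measured 7.89, 5.91 and 6.29, and its other probe set lay below the floor on all 3 arrays. Hs3st1, a sulfotransferase that modifies heparan sulfate, measured 6.46, 4.5 and 5.29.

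The granule protease gene Prtn3 (proteinase 3) measured 9.43 in Spic-positive monocytes, 7.74 in Spic-negative monocytes and 7.45 in macrophages. Fcnb, a ficolin of myeloid cells that recognises microbial sugars, measured 8.68, 7.22 and 6.59. Both were above the floor everywhere, with Spic-negative monocytes slightly ahead of macrophages. Lta (lymphotoxin alpha, 5.20 in Spic-positive monocytes), the endothelin gene Edn1 (6.47), the angiopoietin-like gene Angptl1 (7.03), Reg3b, an antimicrobial lectin (5.21), and Hhipl1 (5.63) were further members of this kind. Adam12, a metalloprotease, the proteoglycan gene Acan, the laminin chain gene Lamb3 and the aminopeptidase gene Anpep lay between 5.29 and 5.95 in Spic-positive monocytes and below the floor in both other populations.

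**Figure D3:**
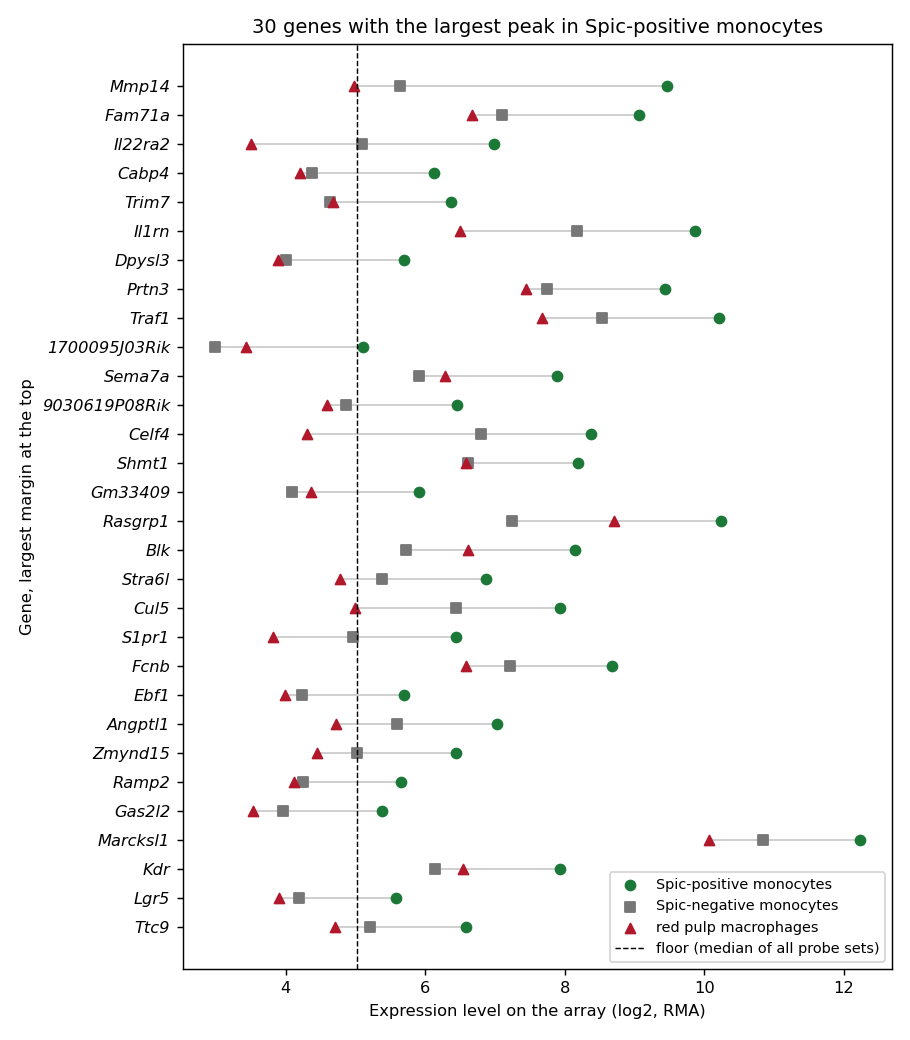
Expression levels (log2) on the 3 arrays for the 30 genes with the largest margin, ordered from top to bottom; circles are Spic-positive monocytes, squares Spic-negative monocytes and triangles red pulp macrophages, and the dashed line is the floor at 5.02. Mmp14 has the widest gap, and only some rows, such as Il1rn, Traf1, Rasgrp1 and Marcksl1, have all 3 points right of the floor.

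Receptors, channels and other membrane proteins made up 20 genes, with Spic-positive levels of 5.18 to 11.59. S1pr1, the sphingosine 1-phosphate receptor that guides exit of lymphocytes from lymphoid organs, measured 6.44 in Spic-positive monocytes, 4.96 in Spic-negative monocytes and 3.83 in macrophages, both below the floor. Kdr, a receptor for vascular endothelial growth factor, measured 7.93, 6.14 and 6.54. Slamf7 and Slamf8 are surface receptors of the SLAM family on leukocytes. Slamf7 measured 8.72, 6.82 and 7.59, while Slamf8 measured 10.34, 9.29 and 9.20. Il15ra, which presents interleukin 15 to lymphocytes, measured 8.45, 7.32 and 7.39, and its further probe set above the floor put the monocyte populations 0.13 apart.

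Tmem176a, a membrane protein of myeloid cells, measured 11.59 in Spic-positive monocytes, 10.34 in Spic-negative monocytes and 10.08 in macrophages. Its further probe sets gave 10.92, 9.97 and 8.25, and 10.73, 9.55 and 8.81. All readings had the same order. Ms4a3, a membrane protein of granulocyte and monocyte progenitors, measured 7.30, 5.52 and 6.14. Stra6l, a relative of the retinol receptor, measured 6.87, 5.38 and 4.78. Ramp2 (a partner of the calcitonin receptor-like receptor), Lgr5 (an R-spondin receptor), P2rx5 (an ATP-gated channel), Gabrp, Trpc2, Lrrc4b, Slc5a9, Slc16a14 and Stum were between 5.18 and 6.13 in Spic-positive monocytes and below the floor in both other populations. The dopamine receptor gene Drd4 (6.96), the potassium channel gene Kcnd1 (6.72) and Tmem200c (6.23) were above it on all arrays.

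Signalling, cytoskeletal and traffic genes made up 22 members. Traf1, an adaptor of TNF receptors and a target of NF-kB, measured 10.21 in Spic-positive monocytes, 8.53 in Spic-negative monocytes and 7.67 in macrophages. On its further probe set it read 8.37, 6.76 and 7.95, so the margin over macrophages shrank to 0.42. Rasgrp1, a Ras exchange factor of lymphocytes, measured 10.25, 7.25 and 8.70, and its further probe set above the floor read 5.65, 3.98 and 5.24. Marcksl1, an actin-binding substrate of protein kinase C, measured 12.23, 10.84 and 10.07, and all 3 of its further probe sets put Spic-positive monocytes at least 2-fold above both others. All its probe sets are of the kind that can bind other transcripts too, and the gene was lost when such probe sets were removed.

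Blk, a Src-family kinase of B cells, measured 8.15 in Spic-positive monocytes, 5.73 in Spic-negative monocytes and 6.61 in macrophages. Cul5, a scaffold of ubiquitin ligases, measured 7.93, 6.44 and 4.99, but its probe sets disagreed, with -0.65 between Spic-positive and Spic-negative monocytes on one and 1.13 on the other. Tbc1d8, a Rab GTPase activator, measured 11.58, 10.29 and 9.15, and its further probe set put the monocytes 0.31 apart. Abi3, an actin regulator, measured 10.66, 9.65 and 8.87. Stap2, a signalling adaptor, measured 6.33, 5.14 and 5.01, and had a larger margin of 2.12 on its further probe set. The rest, among them the ubiquitin ligase gene Trim7 (6.38 in Spic-positive monocytes), the neuronal cytoskeletal gene Dpysl3 (5.70), the calcium-binding protein gene Cabp4 (6.13), Ttc9 (6.59) and Gas2l2 (5.38), together with Rasgrf1, Cep135, Klhl32, Frs3, Fnbp1l, Krt86, Ubxn11, Dnah12 and Sec14l4, had Spic-positive levels of 5.05 to 7.47.

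Of 12 genes for transcription and RNA, Celf4 and Lncpint were above log2 8 in Spic-positive monocytes together with Fbrsl1 and Ppargc1b. Celf4, an RNA-binding protein, measured 8.38 in Spic-positive monocytes, 6.80 in Spic-negative monocytes and 4.31 in macrophages, and both further probe sets had the same order with margins of 1.72 and 1.54. Lncpint, a long noncoding RNA, measured 9.45, 8.09 and 6.15. Ppargc1b, a coactivator of nuclear receptors, measured 8.36, 6.95 and 7.07. Ebf1, the factor that commits cells to the B lineage, measured 5.69, 4.24 and 4.0, so it was close to the floor at its highest. Its further probe sets were below the floor on all 3 arrays, with margins of 1.24, 0.15, -0.24 and -0.29. Ebf1 no longer passed with the mean or median of probe sets. Zmynd15, Foxp4, Meox1, Zfp239, Myt1l, Phf12 and Zglp1 lay between 6.08 and 7.04 in Spic-positive monocytes.

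The interferon-induced gene Ifit2, whose protein binds viral RNA complexes, measured 10.41 in Spic-positive monocytes, 8.94 in Spic-negative monocytes and 9.31 in macrophages. Aim2, a sensor of cytosolic DNA, measured 7.62, 6.56 and 5.27. Both were above the floor in every population. Of the metabolic genes, Shmt1, which makes one-carbon units from serine, measured 8.18, 6.61 and 6.59, Txnrd1, a thioredoxin reductase, 9.90, 8.90 and 8.69, and Ass1, which takes part in arginine synthesis, 7.07, 5.99 and 4.66. The first pair are uncertain, because other probe sets of both genes were highest in macrophages, at 7.14 for Shmt1 and 7.16 for Txnrd1. The adult globin gene Hbb-b2 (5.64, 4.52 and 4.44) is a near-identical copy of another gene, and its further probe set was also highest in macrophages (5.77). Acsm2, Scd3 and Oxct2a were below log2 6.2 in Spic-positive monocytes.

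The remaining 22 genes are known mainly from germ cells or carry provisional names. Of 8 genes known mainly from germ cells, Fam71a measured 9.06 in Spic-positive monocytes, 7.09 in Spic-negative monocytes and 6.67 in macrophages, the second margin of the group, on a single probe set. Tsks measured 7.68, 6.55 and 5.92, and the other 6 (Sun5, Txndc2, Tssk5, Oosp3, Fthl17a and Uba1y) were below the floor in both other populations. The 14 genes with RIKEN or predicted names were led by 1700095J03Rik, 9030619P08Rik and Gm33409, and 13 of the 14 were below the floor in both other populations. Their Spic-positive levels were 5.11 to 6.46.

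The order of the other populations varied within the group. The rule did not set this order directly but limits it, because members must be at least 2-fold below Spic-positive monocytes on both arrays. Over all genes that held for 3.50% against Spic-negative monocytes and for 11.6% against macrophages. All genes also include those highest in macrophages, which the rule excludes. Their shares below are therefore no baseline for the group. Spic-negative monocytes were above macrophages in 74 genes, where 48.3% of all genes were, and below them in 28. In 54 of the 102 genes both values were below the floor and their order lies within background, and of the other 48 Spic-negative monocytes were above in 34. In 90 genes the 2 arrays were within 2-fold of each other, as were all genes except the 11.3% and 19.5% given next. The 90 include all but S1pr1 and Trpc2 of the 54 genes with both values below the floor. For those, the closeness also lies within background. In 10 genes Spic-negative monocytes were at least 2-fold above macrophages, where 11.3% of all genes were. These were Il22ra2, Il1rn, Celf4, Cul5, S1pr1, Lncpint, Trpc2, Tbc1d8, Ass1 and Aim2. By the rule this order needs a Spic-positive value at least 4-fold above macrophages, which 18 members had, so the choice of genes limits this count too. For S1pr1 and Trpc2 both values were below the floor. A further probe set of Il1rn had the opposite order, with 6.93 in Spic-negative monocytes and 7.19 in macrophages, and its other one kept the order. In 2 genes, Dnase1l3 and Rasgrp1, macrophages were at least 2-fold above Spic-negative monocytes (19.5% of all genes). By the rule this needs a Spic-positive value at least 4-fold above Spic-negative monocytes, which 5 members had, so the low count follows from the choice of genes. Macrophages exceeded Spic-negative monocytes by 3.90 for Dnase1l3 and by 1.45 for Rasgrp1, and Spic-positive monocytes exceeded both.

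Further probe sets of the same genes, which did not choose them, were measured on the same RNA so they speak to the error of single probe sets, not to that between mice. Of the 102 genes, 47 had 79 of them. At any level, 58 of the 79 (73.4%) were highest on the Spic-positive array, where 32.6% of the 14329 further probe sets of all genes compared were. At least 2-fold over both others were 14 (17.7%), where 0.872% of all were. These shares were not matched for level, and low values as a whole were slightly higher on the Spic-positive array. The 79 had median differences of 0.39 from Spic-negative monocytes and 0.42 from macrophages, smaller than those of the probe sets that chose the genes, where all further probe sets had -0.04 and 0.10. Of the 79, 33 in 23 genes were above the floor, 7 of them only through the Spic-positive array, so no count over the 33 is read here. In 6 genes, Cul5, Gm5124, Hbb-b2, Myt1l, Shmt1 and Txnrd1, at least 1 further probe set above the floor was not highest in Spic-positive monocytes, and 79 of 102 genes had no further probe set above the floor.

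**Figure D4:**
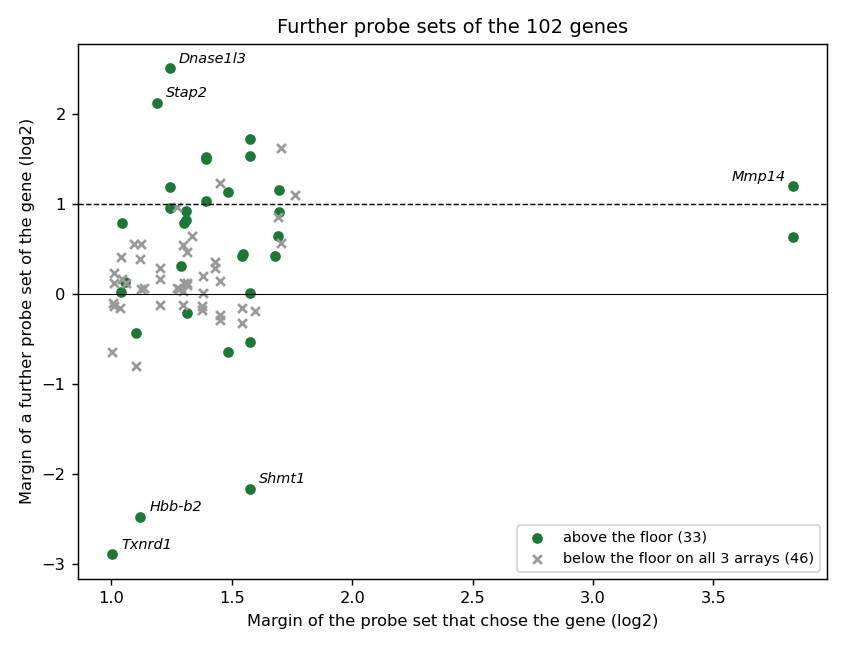
Margin (log2, difference from the nearer of the other arrays) of each further probe set against the margin of the probe set that chose the gene; filled points are above the floor and crosses below it on all 3 arrays. Of all 79 points 58 lie above 0 and 14 at or above the dashed 2-fold line, while Txnrd1, Hbb-b2 and Shmt1 fall below -2.

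Several members are markers of cells other than monocytes and macrophages, and their lists are given whole, to be read against the shares of all genes above. Of 20 measured markers of activated or migratory dendritic cells, 10 were higher in Spic-positive monocytes by 2-fold or more over Spic-negative monocytes, 7 were at least 2-fold higher than in macrophages and 3 were 2-fold lower than in macrophages. Traf1, Marcksl1 and Il15ra are of that list, and 5 of the 20 peaked before symbols were left out. The list medians were 0.90 and 0.68. The homing receptor gene Ccr7, left out by name, measured 9.90 in Spic-positive monocytes, 5.85 in Spic-negative monocytes and 7.90 in macrophages, and Cd274, which encodes a ligand of PD-1, 10.26, 7.09 and 9.62. Socs2 (4.66) and Ccl22 (5.24) of that list were near the floor in Spic-positive monocytes, and Ccl17 and Il12b were below it on all 3 arrays. Of 15 measured conventional dendritic cell genes, 4 were 2-fold above Spic-negative monocytes, 4 were 2-fold above macrophages and 3 were 2-fold below them. No gene of that list is among the 102 because Itgax and Ciita, which met the rule, were left out by name. How far dendritic cells in the gate add to the group was not tested. In bulk RNA, fewer cells of a type and less RNA per cell cannot be told apart.

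B cell markers were at least 2-fold higher than in Spic-negative monocytes in 13 of 15 genes, with a median of 1.57, but at least 2-fold higher than in macrophages in 4 and 2-fold lower in 2. Those 4 are the members Blk and Ebf1 and, left out by name, Cr2 and Ms4a1. The surface protein gene Ms4a1 measured 9.53 in Spic-positive monocytes, 7.14 in Spic-negative monocytes and 7.72 in macrophages. The list ranged in its differences from Spic-negative monocytes between 0.60 for Pax5 and 2.48 for Cr2. The lineage factor Pax5 measured 5.29 in Spic-positive monocytes, 4.69 in Spic-negative monocytes and 5.05 in macrophages, and the antigen receptor gene Cd79a 6.06, 4.85 and 5.92. Of 8 granule and progenitor genes above the floor, 6 were 2-fold above Spic-negative monocytes (median 1.74), 3 above macrophages and 1 below them, with Prtn3 and Ms4a3 among the 102. The myeloperoxidase gene Mpo lay just outside the group, as given below. Of 8 endothelial and stromal genes above the floor 2 were 2-fold above Spic-negative monocytes, Kdr and Stab2, 1 was 2-fold above macrophages and 3 were 2-fold below them. Stab2 measured 6.39 in Spic-positive monocytes, 4.35 in Spic-negative monocytes and 11.86 in macrophages. The endothelial genes Cdh5 and Pecam1 were 4.65 and 5.16 in Spic-positive monocytes, near or below the floor. The part of B cells and progenitors in these values was not tested.

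**Figure D5:**
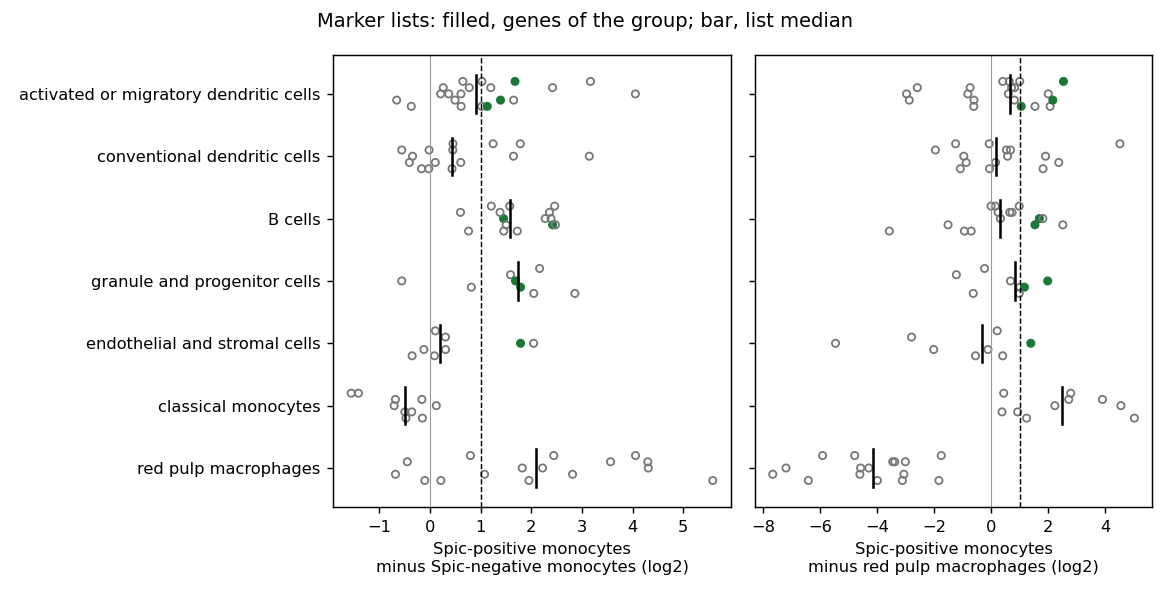
Differences (log2) of Spic-positive monocytes from Spic-negative monocytes (left) and from red pulp macrophages (right) for every gene above the floor in 7 marker lists; filled points belong to the 102 genes, bars are list medians and dashed lines mark 2-fold. Granule and B cell lists have medians of 1.74 and 1.57 on the left and of 0.83 and 0.32 on the right.

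The red pulp macrophage list gave no member, because the rule excludes genes highest in macrophages. The classical monocyte list, with 10 genes above the floor, gave none either. Macrophage genes were 2-fold higher than in Spic-negative monocytes in 11 of 16 and 2-fold lower than in macrophages in all 16, with list medians of 8.53 in Spic-positive monocytes, 5.56 in Spic-negative monocytes and 12.72 in macrophages. Classical monocyte genes had medians of -0.48 against Spic-negative monocytes and 2.48 against macrophages. No gene of the neutrophil, erythroid, T cell, NK cell, plasma cell, platelet, plasmacytoid dendritic cell, basophil and mast cell, or marginal zone macrophage lists was among the 102. These lists held 3 to 10 genes above the floor each, and 0.848% of all genes compared were members, so this absence says little.

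Each pathway list held 1 member or none, where 0.848% of all genes compared were members. Of 13 matrix proteolysis genes above the floor, 2 were 2-fold above and 1 was 2-fold below Spic-negative monocytes, 3 were above and 7 below macrophages, and Mmp14 was the member. Mmp9 measured 6.68 in Spic-positive monocytes, 7.78 in Spic-negative monocytes and 8.04 in macrophages, and Timp2, an inhibitor that also takes part in the activation of Mmp2, 9.45, 9.56 and 12.08. Mmp2 itself was 4.88 in Spic-positive monocytes, below the floor. Of 6 interleukin 22 and interleukin 10 family genes above the floor, 1 was 2-fold above Spic-negative monocytes, 2 were above and 2 below macrophages, and Il22ra2 was the member. The signalling receptor Il22ra1 was below the floor on all 3 arrays and the shared chain Il10rb measured 9.82, 9.62 and 10.83. Of 19 NF-kB genes, 3 were 2-fold above Spic-negative monocytes, 4 were 2-fold above macrophages, 2 were 2-fold below them and Traf1 was the member (medians 0.33 and 0.13). Cd40 of the NF-kB list also met the rule, with a margin of 1.02, but was left out by name. Of 19 interferon targets, Ifit2 alone was 2-fold above Spic-negative monocytes, 9 were 2-fold above macrophages and 1 was 2-fold below them (medians 0.52 and 0.54). Of 7 nucleases, Dnase1l3 alone passed either 2-fold limit, and the lysosomal nuclease gene Dnase2a measured 7.58, 7.78 and 7.69. Protein C, Notch and cell cycle lists held no member. Of 18 cell cycle genes 6 were 2-fold above Spic-negative monocytes and 17 were 2-fold below macrophages.

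Genes on either side of the limit differed little. Just inside it lay Dnah12, Abi3, Edn1, Sec14l4 and Txnrd1, with smaller differences of 1.0 to 1.01. Just outside lay Gm12596 and Mapk8ip3 (0.99 each), Htra1 (0.99), Akp3 (0.99) and Mpo (0.98), the last at 9.21 in Spic-positive monocytes, 6.35 in Spic-negative monocytes and 8.22 in macrophages. A further 46 genes had the margin but a Spic-positive value at or below the floor, the closest being 9330102E08Rik at 5.0, while Oxct2a and Uba1y entered at 5.02. The 22 genes that met the rule but were left out by name had margins of 1.02 to 2.95. When probe sets were summarised by mean or median, the arrays were scaled in other ways or ambiguous probe sets were removed, 42 of the 102 genes passed under every one of these 6 settings. Of the 42, 14 were above the floor on all 3 arrays.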

How the data were processed

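RNA of 3 sorted populations of the mouse spleen was measured on 1 Affymetrix array each. Total RNA was isolated on columns and amplified in a 2-cycle scheme into biotin-labelled cRNA, per the labels' protocols. The authors deposited log2 values, 1 for each probe set, from RMA, per the submitters' processing notes, and the RMA version is not stated there. The log2 scale was taken from the values (1.82 to 14.50). Of 45101 probe sets, 64 were controls. Among the other 45037, the platform annotation gave 1 symbol to 34945, several to 932 (which named no gene) and none to 9160. Old symbols were brought up to date by gene identifier with a RefSeq table of GRCm38.p6 for 34741 of them.

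The probe set of highest mean stood for each gene. The floor was the median value without controls, rounded to 5.02, and the 12414 genes above it on at least 1 array were compared. With 1 array per population, precision is limited by the number of arrays, no test was made, and no error over animals can be given. The members, the marker and pathway lists and the motifs were chosen with earlier results of these arrays known, and the grouping of members by role was made after their values were seen. Genes named were the 30 with the largest margin, members of a list, members whose probe sets disagreed and those at the limit. Other members are named to account for the group, except most of those with RIKEN or predicted names, which are only counted. The rule was tested on simulated data. Alternatives were the mean or median of probe sets, other scalings, floors, margins and name filters. Python 3.11.15, numpy 2.4.6, pandas 2.3.3, matplotlib 3.10.9 and, for cyclic loess, R 4.3.3 with limma 3.58.1 were used.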

Additional observations from a re-analysis of the deposited data

Results flagged for a closer look

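Probe sets outside the gene comparison also had their highest value in Spic-positive monocytes. Of 4049 probe sets above the floor with no symbol or several symbols, 70 (1.73%) met the same rule, and the one with the widest margin (2.17) measured 7.87 in Spic-positive monocytes, 5.55 in Spic-negative monocytes and 5.70 in red pulp macrophages. The hybridization controls, which are added to every array, had higher values in Spic-positive monocytes, by medians of log2 2.16 over Spic-negative monocytes and 2.10 over red pulp macrophages. No sample could be compared with others of its population, since each had 1 array.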

How the results depend on the processing

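The number of genes peaking in Spic-positive monocytes, 102, stayed between 69 and 148 under other summaries, scalings, symbols and no floor, and was 30 with the floor at the 75th percentile of all values. It was 558, 12 and 1 at margins of 1.5-fold, 3-fold and 4-fold, where the count for Spic-negative monocytes was 556, 14 and 4, that for red pulp macrophages 3094, 1001 and 635, and that of genes lowest in Spic-positive monocytes 724, 12 and 0. The last count was also 88 with the mean of probe sets and 74 with the higher floor. Of the 102 genes, 66 passed under all 3 other scalings and 42 under those scalings, both summaries and the removal of probe sets that can bind several transcripts, among them Mmp14, Il22ra2, Il1rn, Traf1, Blk and Dnase1l3. All 3 arrays were above the floor for 14 of the 42. The share of further probe sets with a 2-fold peak was 17.7% with no floor, where 0.872% of those of all genes compared had one. It was 33.3% of those above the floor and 72.7% with the higher floor. Either floor favours probe sets high on the Spic-positive array, so these last shares are not read. The share of genes above the floor on another array was 14.7% with the higher floor. Differences from macrophages reversed for Shmt1 (-0.22 with the mean and -0.77 with the median of probe sets), Hbb-b2 (-0.64 with either) and Txnrd1 (-0.78 and -2.90), as did that of Txnrd1 from Spic-negative monocytes with the median (-0.24). Their other probe sets read otherwise. Over all genes, the median difference from macrophages was -0.23 after centring and 0.03 after quantile normalization. No paired analysis was possible because each population had 1 array, and no array could be left out.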
